A study of Mus musculus with 221 samples.

Results

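The genes that write, read or erase N6-methyladenosine were followed through mouse blood-forming endothelium in single-cell nanopore RNA sequencing. They were chosen by symbol alone, as every transcript annotated to Mettl3, Mettl14, Wtap, Ythdf1, Ythdf2, Ythdf3, Ythdc1, Alkbh5 or Fto, which gave 9 of 78317 genes and 58 of 278369 transcripts. All 9 genes had counts in each of the 3 hemogenic endothelium (HE) populations. The cells were sorted from Gfi1-GFP and Runx1b-RFP reporter embryos, whose parents were C57BL/6JOlaHsd reporter mice and wild-type Hsd:ICR (CD-1) females, and received no treatment. HE-AGM came from the aorta-gonad-mesonephros region of E9.5 and E10.5 embryos, sorted as RUNX1+ KIT- CDH5+ CD41- CD45- cells with or without GFI1. HE-YSA and HE-YSP came from the yolk sac (YS) at E9, E9.5 and E10.5, sorted as RUNX1+ KIT+ CD31+ CD41- CD45- cells with or without GFI1, and stand for arterial and plexus HE. Each HE population was divided into early and late clusters, and 3 further clusters hold more advanced cells, labelled HE-Hb (titled as AGM cells, abbreviation not spelled out) and early YS hematopoietic progenitors skewed towards lymphomyeloid (LMP) or erythromyeloid (EMP) output.

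N6-methyladenosine, or m6A, is the most abundant internal modification of mRNA. The METTL3 and METTL14 heterodimer places it on nascent transcripts, with METTL3 as the catalytic subunit and WTAP as the adaptor that keeps the complex in nuclear speckles. YTHDC1 reads the mark in the nucleus, YTHDF1, YTHDF2 and YTHDF3 read it in the cytoplasm, and ALKBH5 and FTO remove it. In vertebrate embryos METTL3 and YTHDF2 are known for the endothelial-to-hematopoietic transition, where marked Notch pathway mRNAs are decayed through YTHDF2.

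Of 221 cells, those with a total of at least 17595 counts were used, among them 49 HE-AGM cells, 52 HE-YSA cells and 49 HE-YSP cells. The median total was 59311 counts per cell for HE-AGM, 34483.5 for HE-YSA and 33297 for HE-YSP. No embryo is named for any cell, so each population was 1 sample, no test between populations was made, and the 95% intervals given with each value (exact Poisson for levels, exact binomial for shares and ratios) cover counting error only. Levels are given as counts per 1000000 summed counts of a population (CPM), without correction for transcript length. A gene was called higher or lower when the ratio of CPM reached 2-fold with at least 20 counts over both populations. Each population was sequenced in all 3 nanopore runs, but AGM and YS cells also came from separate cDNA projects except for 1 HE-YSA early cell, so tissue and project cannot be told apart. Without the 3 cells labelled as YS whose library names or projects are those of AGM cells, all of them HE-YSA, the numbers of genes past 2-fold given for the 3 comparisons of HE populations were the same, and the median log2 ratio over HE-YSA was 0.67. In addition, the ratio of AGM to YS rose with transcript length above 1000 nt across all genes. The median log2 ratio of HE-AGM over HE-YSA was -0.16 for genes with transcripts under 500 nt and -0.29 at 1000 to 1500 nt. It was 0.51 at 2000 to 3000 nt and 1.22 from 4000 nt upwards. The part of transcript length in the differences below was not tested unless a value is given. All 5 endothelial markers were detected in each HE population, with a summed level of 1303 CPM for HE-AGM, 1061 CPM for HE-YSA and 1093 CPM for HE-YSP. Arterial markers summed to 814, 521 and 17.9 CPM and markers of YS endothelium to 1.80, 109 and 1163 CPM in the same order, with 4, 3 and 2 of 4 arterial markers and 2, 3 and 3 of 3 YS endothelial markers detected. The sum of blood progenitor markers moved with the genes that were higher in HE-AGM, at 320.5, 99.7 and 111 CPM with 4, 3 and 3 of 4 detected. Among them, Spi1 stood at 195, 54.6 and 41.9 CPM and Myb at 103, 40.9 and 25.7 CPM. The rest of the sum, from Ptprc and Itga2b, was larger in HE-YSP than in HE-AGM. The part of these markers in the differences of the members was not tested.

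Wtap, Ythdf1, Ythdc1 and Alkbh5 were higher in HE-AGM than in either YS population, by 2.3- to 9.24-fold. Fto passed 2-fold against HE-YSP only, Ythdf3 was lower in HE-AGM than in HE-YSA, and Mettl3, Mettl14 and Ythdf2 did not reach 2-fold in any comparison of HE populations. Thus 4 of 9 genes were higher and 1 was lower in HE-AGM over HE-YSA, where 31.8% of 11976 genes were higher and 13.3% were lower. Against HE-YSP, 5 of 9 were higher and 0 were lower, where 34% of 11868 genes were higher and 14.5% were lower. The median log2 ratio of the 9 genes was 0.74 against HE-YSA, beside 0.31 for all genes tested, and 1.09 against HE-YSP, beside 0.37 for all genes tested. Both medians of the 9 genes were smaller when the median of genes of like transcript length was subtracted. Between the YS populations, Wtap was the 1 gene past 2-fold, lower in HE-YSP, where 11.6% of 9814 genes were lower and 9.54% were higher. The median log2 ratio of HE-YSP over HE-YSA was -0.36 for the 9 genes and -0.01 for all genes tested. The comparisons share populations, so their counts are given side by side and do not support one another. The counts were not tested against the shares of all genes and are no result about the list.

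**Figure D1:**
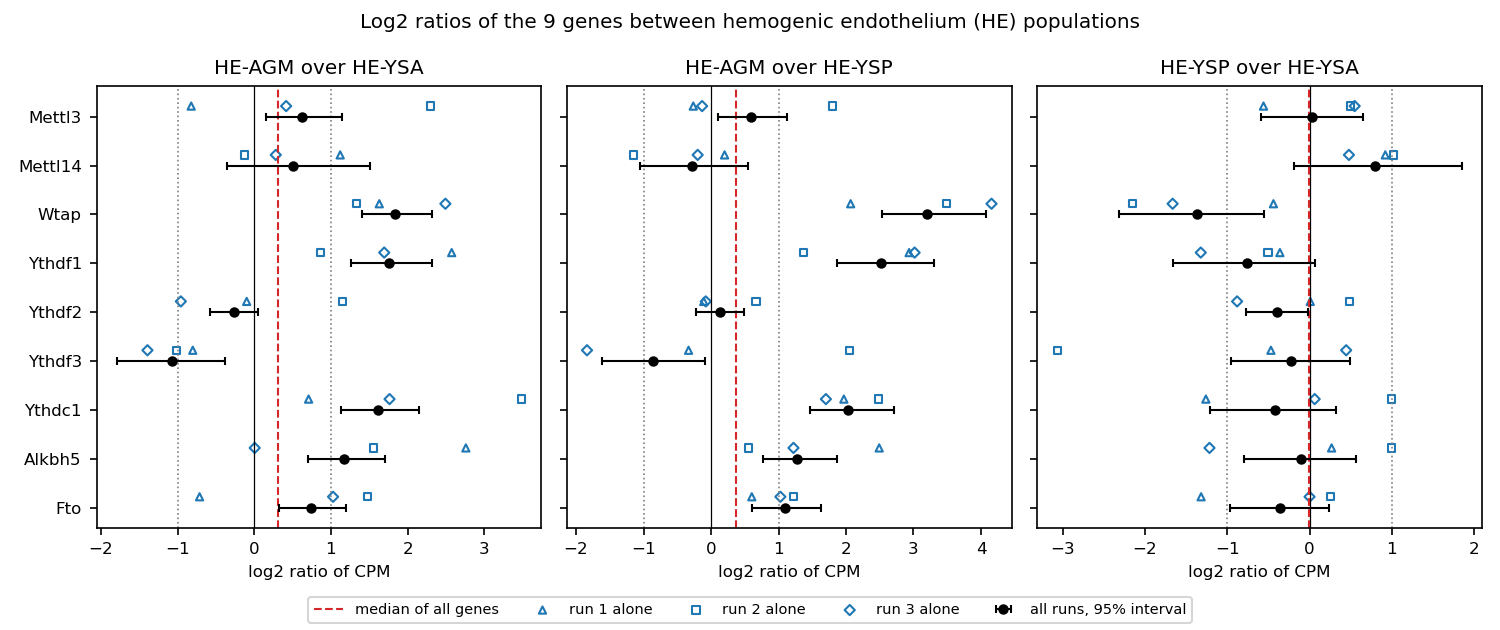
The log2 ratio of CPM (x axis) of each of the 9 genes in the 3 comparisons of HE populations, with black points for all runs and bars for 95% counting intervals, open symbols for each of the 3 nanopore runs, dotted lines at 2-fold and a dashed line at the median of all genes. Wtap lies past 2-fold in each run for both AGM comparisons, whereas the runs of Mettl3 and Fto lie on both sides of 0 against HE-YSA.

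Wtap (chr17:12966796-12994169, minus strand, mouse GRCm38 as for all positions here), the adaptor of the writer complex, showed the widest separation of AGM and YS cells among the writers. Single HE-AGM cells held a lowest level of 0, a median of 76.8 CPM and a highest of 464 CPM. The median was 0 CPM for HE-YSA and for HE-YSP, with highest cells of 154 CPM and 119 CPM. Thus the ranges of single cells overlapped, while most HE-AGM cells lay above the median YS cell. At least 1 count of Wtap was found in 43 of 49 HE-AGM cells (87.8%), 17 of 52 HE-YSA cells (32.7%) and 8 of 49 HE-YSP cells (16.3%). Thinned to 18000 counts per cell, these shares were 69.9%, 22.9% and 10.3%. Over the summed cells, the level was 91.0 CPM for HE-AGM (81.0 to 102), 25.2 CPM for HE-YSA (18.6 to 33.4) and 9.57 CPM for HE-YSP (5.47 to 15.5). This gave a 3.58-fold higher level than in HE-YSA, a log2 ratio of 1.84 (1.41 to 2.32), with run values of 1.63, 1.34 and 2.49. Against HE-YSP the level was 9.24-fold higher, a log2 ratio of 3.21 (2.53 to 4.07), with run values of 2.07, 3.49 and 4.16. HE-YSP was 2.58-fold lower than HE-YSA, a log2 ratio of -1.37 (-2.31 to -0.55) that rests on 16 and 48 counts and was below 0 in all 3 runs.

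The order of Wtap levels over the 9 clusters split the AGM from the YS. HE-Hb was highest at 117 CPM, followed by HE-AGM early at 97.0 CPM and HE-AGM late at 82.7 CPM (68.3 to 99.3), whose neighbouring intervals overlapped. The next cluster, HE-YSA late, was at 26.3 CPM and its interval lay below that of HE-AGM late. The other YS clusters followed from 23.8 CPM for HE-YSA early to 8.23 CPM for HE-YSP early, each overlapping its neighbour. Erythroid markers moved with these populations as well, with a summed level of 219 CPM for HE-AGM, 44.6 CPM for HE-YSA and 26.9 CPM for HE-YSP, and 5 of 6 erythroid markers had counts in each. Their level was 351 CPM in HE-AGM early and 35.2 CPM in HE-AGM late, and their part in the Wtap difference was not tested.

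**Figure D2:**
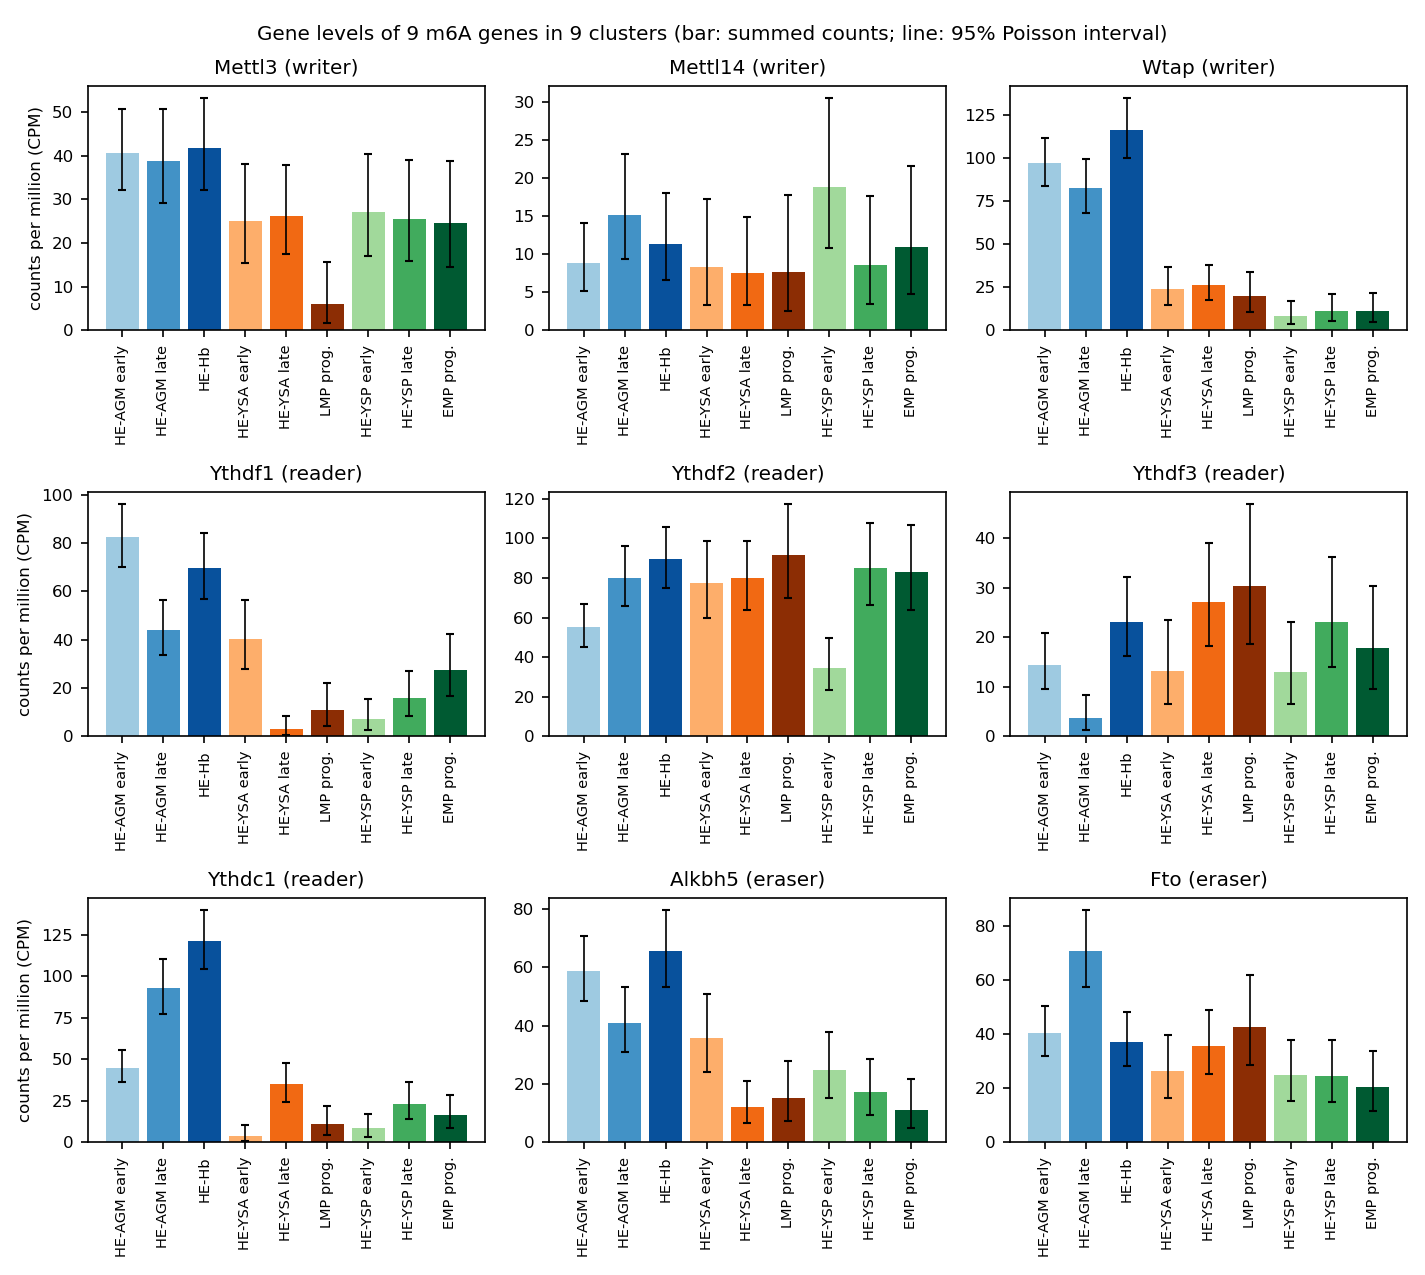
Level of each of the 9 genes (y axis, CPM of summed counts) in the 9 clusters, as bars with lines for 95% Poisson intervals. Wtap lies between 82.7 and 117 CPM in HE-AGM early, HE-AGM late and HE-Hb and at 26.3 CPM or below in the 6 YS clusters, whereas the intervals of Mettl14 overlap between neighbouring clusters throughout.

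A pair of Wtap transcripts carried nearly all counts and could not be resolved. Wtap-201 (2051 nt) and Wtap-203 (2060 nt) each held 47.9% of the Wtap counts in HE-AGM. They differ in a first exon of 183 or 189 bases and join the same second exon with the same coding sequence of 1188 bases. Of all Wtap counts, 39.5% lay in values that the counting program had split between transcripts, so the equal shares are a property of the estimate. The exon 1 to exon 2 junctions are given from the mouse GENCODE M21 annotation on GRCm38, with the first 15 bases of exon 2 in capitals. The first exons do not overlap, and the last 15 bases of each are in lower case.
Wtap-201: cctcgggctgggaagGGTGCAAGATGACCA
Wtap-203: agaggcgcgtctcggGGTGCAAGATGACCA

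**Figure D3:**
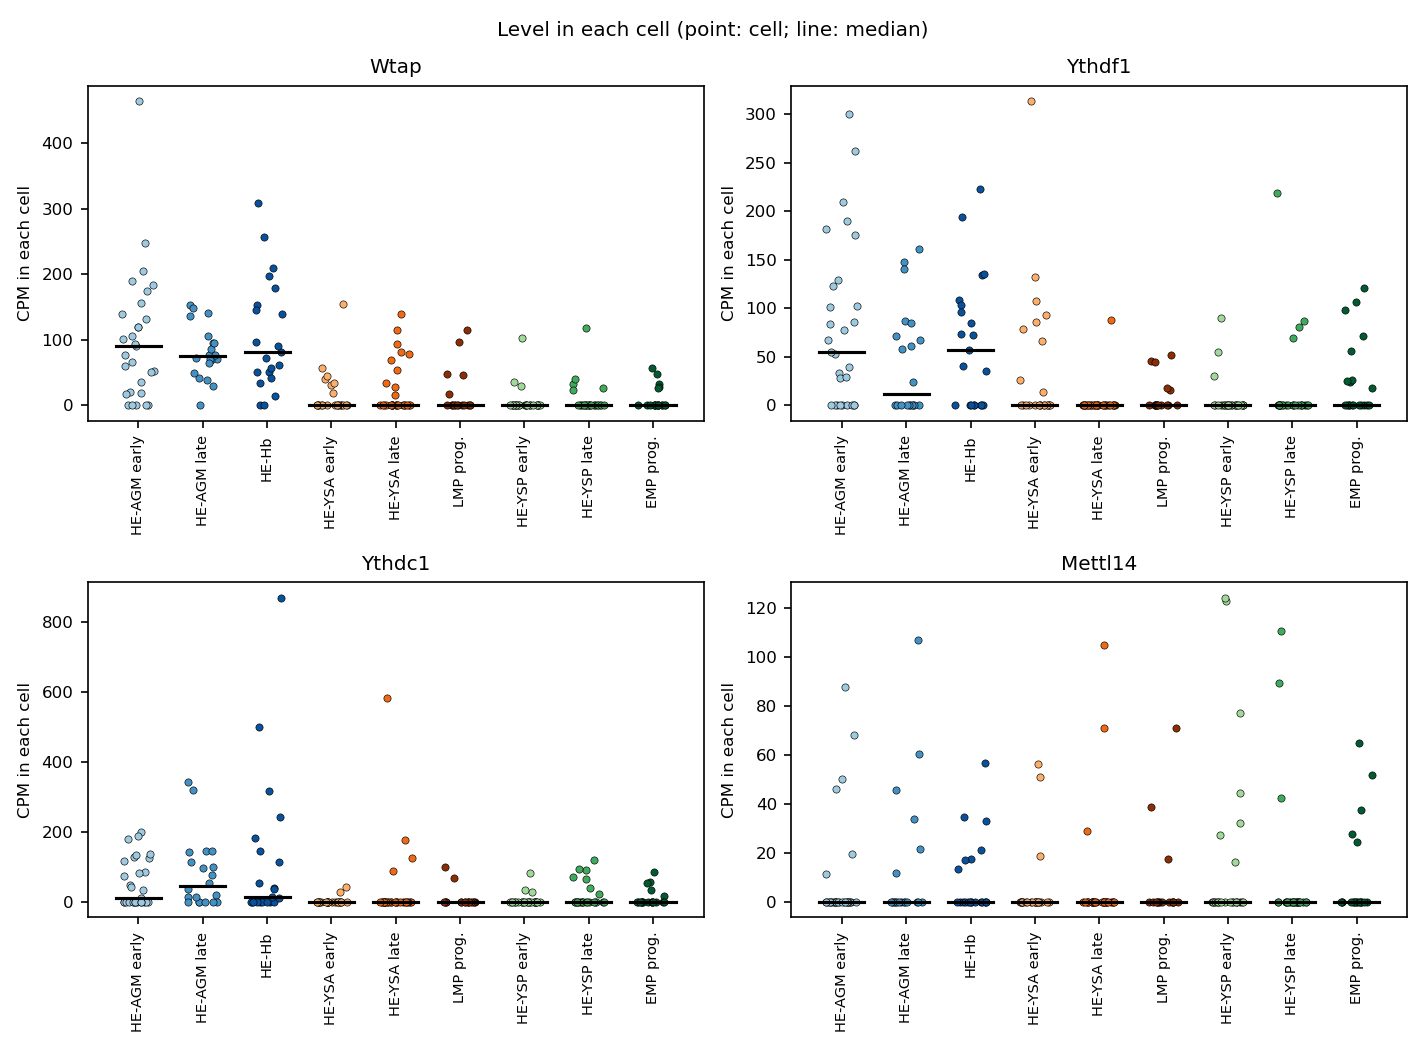
Level (y axis, CPM in each cell) of Wtap, Ythdf1, Ythdc1 and Mettl14 in the cells used, by cluster, with each point 1 cell and a line at the median of the cluster. Most cells of HE-AGM early, HE-AGM late and HE-Hb have Wtap above 0, whereas the median of Wtap is 0 in the 6 YS clusters, and that of Mettl14 is 0 in all 9.

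Mettl3 (chr14:52294841-52305128, minus strand), the catalytic writer, was measured at 39.9 CPM for HE-AGM (33.4 to 47.3), 25.7 CPM for HE-YSA (19 to 34) and 26.3 CPM for HE-YSP (19.1 to 35.3). The log2 ratios of 0.63 over HE-YSA and 0.59 over HE-YSP stayed under 2-fold. Run values against HE-YSA were -0.82, 2.30 and 0.42, so the runs did not share a direction. A single HE-AGM cell carried 41 of the 133 Mettl3 counts of its population, or 30.8%. Over the clusters, Mettl3 ran from 41.7 CPM in HE-Hb to 24.6 CPM in the EMP progenitors with overlapping neighbours, and LMP progenitors lay lowest at 6.09 CPM (1.66 to 15.6), which still overlapped the interval of the EMP progenitors.

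The Mettl3 transcripts counted differed between populations, with a large part from 1 cell. Mettl3-203, an intron-retaining transcript of 963 nt and 3 exons without coding sequence, held 55.6% of Mettl3 counts for HE-AGM (74 counts in 11 cells), 2.04% for HE-YSA (1 count) and 13.6% for HE-YSP (6 counts). It held 39.7% in HE-Hb, where its 25 counts came from 11 cells with at most 5 in any cell. In HE-AGM, however, 39 of its 74 counts came from 1 HE-AGM early cell, and its share was 0% in run 1, 82.2% in run 2 and 37.8% in run 3. The full-length coding transcript Mettl3-201 (2025 nt, coding sequence of 1740 bases) held 24.4%, 51.0% and 76.1% in HE-AGM, HE-YSA and HE-YSP. Its log2 ratio was -0.44 over HE-YSA (-1.25 to 0.37) and -1.04 over HE-YSP (-1.79 to -0.29), the second past 2-fold. Without Mettl3-203, the gene stood at 17.7 CPM, 25.2 CPM and 22.7 CPM and the log2 ratio over HE-YSA turned to -0.51 (-1.08 to 0.07). The retained transcript reads on into 482 bases of intron after an exon that Mettl3-201 splices from exon 6 to exon 7. Both run 5′ to 3′ on the minus strand of chromosome 14, with the bases after the exon end in capitals.
Mettl3-203: ctgggtcacaggaagGTAATATAATCCAGA
Mettl3-201: ctgggtcacaggaagGGCCATGGAATTGGG

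Mettl14 (chr3:123368297-123386108, minus strand), the RNA-binding partner of METTL3, was sparse throughout. Its median was 0 CPM in all 3 HE populations, with highest cells of 107 CPM for HE-AGM, 105 CPM for HE-YSA and 124 CPM for HE-YSP. Counts were found in 12 of 49, 6 of 52 and 10 of 49 cells. The summed level was 11.4 CPM for HE-AGM (8.08 to 15.7), 7.87 CPM for HE-YSA (4.41 to 13) and 13.8 CPM for HE-YSP (8.72 to 20.6). These intervals overlapped, as did those of all neighbours in the order of 9 clusters from 18.8 CPM for HE-YSP early to 7.51 CPM for HE-YSA late. The log2 ratio of HE-YSP over HE-YSA was 0.79 (-0.20 to 1.85), the highest of the 9 genes in that comparison and under 2-fold. Without adjustment for transcript length, a difference in Mettl14 between HE populations was therefore not detected at this depth. Less the median of genes of like length, its log2 ratio of HE-AGM over HE-YSP was -1.57.

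Among the readers, Ythdf1 and Ythdc1 were higher in HE-AGM, Ythdf3 was lower than in HE-YSA, and Ythdf2 differed mainly in its transcripts. Ythdf1 (chr2:180904377-180920949, minus strand), a cytoplasmic reader linked to translation of marked mRNAs, had a median of 53.0 CPM and a highest cell of 300 CPM in HE-AGM. Its highest cells held 313 CPM for HE-YSA and 219 CPM for HE-YSP, so single cells reached similar levels in each population. Counts were instead present in more HE-AGM cells, 30 of 49 (61.2%) beside 10 of 52 (19.2%) and 7 of 49 (14.3%), or 48.9%, 15.3% and 11.8% when thinned. The summed level was 66.4 CPM for HE-AGM (57.9 to 75.7), 19.4 CPM for HE-YSA (13.7 to 26.8) and 11.4 CPM for HE-YSP (6.84 to 17.7). This was 3.38-fold higher than HE-YSA, a log2 ratio of 1.76 (1.27 to 2.32), and 5.70-fold higher than HE-YSP, a log2 ratio of 2.51 (1.87 to 3.31), and was above 0 in each run of both comparisons.

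Across clusters, Ythdf1 was highest in HE-AGM early at 82.5 CPM and HE-Hb at 69.6 CPM (56.9 to 84.2), above HE-AGM late at 43.9 CPM (33.6 to 56.4). HE-YSA early followed at 40.5 CPM and its interval overlapped that of HE-AGM late, while HE-YSA late was last at 2.82 CPM (0.581 to 8.23). Ythdf1-201 (3184 nt, 1677 coding bases) held 84.2% of the counts for HE-AGM, 54.1% for HE-YSA and 73.7% for HE-YSP. Ythdf1-202 (2272 nt, 1758 coding bases) held 14.9%, 45.9% and 26.3%. It has a further exon of 81 bases, and its last exon ends 993 bases earlier. By run, its share in HE-YSA was 62.5%, 71.4% and 13.3%. The longer transcript had a log2 ratio of 2.38 over HE-YSA and the shorter one 0.13, resting on 20 and 17 counts in HE-YSA.

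Ythdf2 (chr4:132184912-132212303, minus strand), the reader known for decay of marked mRNAs, stayed under 2-fold between HE populations but was measured as different transcripts. The gene stood at 65.5 CPM for HE-AGM (57.1 to 74.8), 78.7 CPM for HE-YSA (66.6 to 92.4) and 59.5 CPM for HE-YSP (48.4 to 72.4). The log2 ratios for HE-AGM were -0.27 (-0.57 to 0.04) over HE-YSA and 0.13 over HE-YSP. Run values over HE-YSA were -0.10, 1.15 and -0.96, so the runs did not share a direction. For HE-YSP over HE-YSA the log2 ratio was -0.40 (-0.78 to -0.02). Ythdf2-201, a 955 nt transcript, held 61.0% of the Ythdf2 counts for HE-AGM (54.2 to 67.5), 22% for HE-YSA (15.7 to 29.5) and 36.2% for HE-YSP (26.6 to 46.2). Conversely, the intron-retaining Ythdf2-202 (2536 nt) held 26.5% for HE-AGM (20.9 to 33.0), 70.9% for HE-YSA (62.7 to 77.8) and 62.6% for HE-YSP (51.7 to 71.5). In the more advanced clusters, Ythdf2-201 held 60.7% in HE-Hb, 15% in LMP and 34.4% in EMP progenitors. A shift of more than 0.1 in isoform fraction was called for genes with at least 50 counts in both populations, and for Ythdf2-202 it came to -44.5 percentage points against HE-YSA and -36.1 against HE-YSP. Such shifts were common, at 58.7% of 3342 genes for HE-AGM over HE-YSA, 56.0% over HE-YSP and 25.3% for HE-YSP over HE-YSA, so that having one does not set Ythdf2 apart.

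The 2 transcripts differ over most of the message. Ythdf2-203 (4129 nt, 5 exons), the full-length form with a coding sequence of 1737 bases, held 1.38% of counts for HE-AGM and 3.33% for HE-YSA. Ythdf2-201 skips its exon of 1584 bases, which leaves a coding sequence of 153 bases in 4 exons, and ends 1378 bases before it. Ythdf2-202 contains the long exon, keeps intron 1 of 443 bases, has no annotated coding sequence, and ends 460 bases before Ythdf2-201. The transcripts therefore differ in splicing, length and 3′ end at once, and which of these set the assignment of a read cannot be told apart from the counts, since reads were not analysed here. The junctions that separate them are given from GENCODE M21 (minus strand of chromosome 4), with the bases after the exon end in capitals.
Ythdf2-203, exon 3 into the long exon: ccacaggcaaggccgAATAATGCATATACT
Ythdf2-201, same exon past the long exon: ccacaggcaaggccgGAACGTCAAGGTCGT
Ythdf2-203, exon 1 to exon 2: agcctcttggagcagAGACCAAAAGGTCAA
Ythdf2-202, exon 1 into the kept intron: agcctcttggagcagGTACAGGCCCAGCCC

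**Figure D4:**
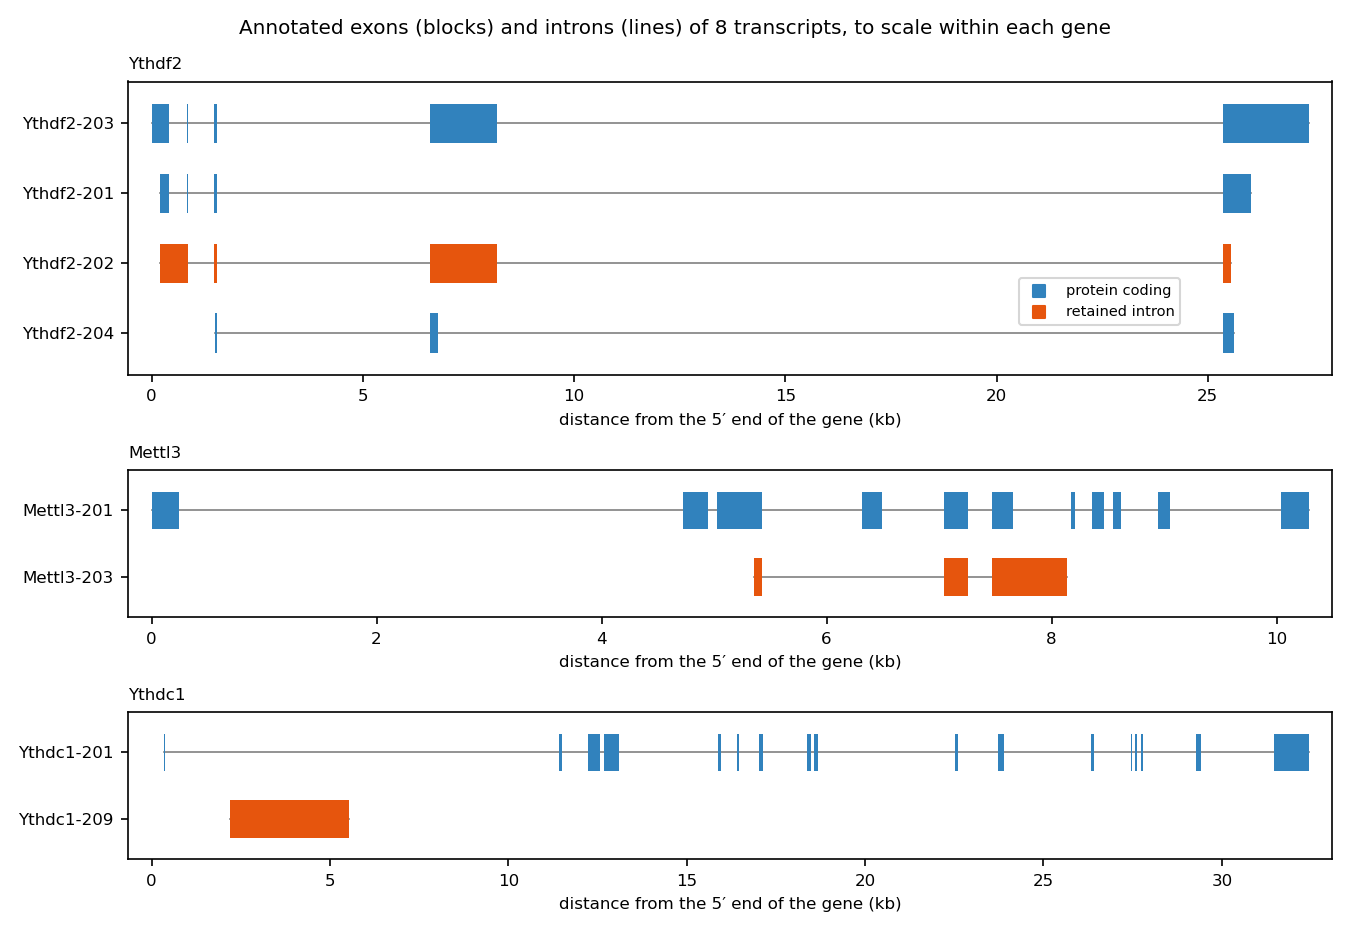
Annotated exons (blocks) and introns (lines) of 8 transcripts of Ythdf2, Mettl3 and Ythdc1, to scale within each gene, against the distance from the 5′ end of the gene (x axis, kb), in blue for protein-coding and orange for intron-retaining transcripts. Ythdf2-201 lacks the long exon of 1584 bases that Ythdf2-202 and Ythdf2-203 hold, Mettl3-203 runs on into an intron, and Ythdc1-209 is a single exon inside intron 1.

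The Ythdf2 shift was spread over cells and runs. Ythdf2-201 was found in 33 of 49 HE-AGM cells, 12 of 52 HE-YSA cells and 7 of 49 HE-YSP cells, and Ythdf2-202 in 22, 31 and 23 cells. Among cells with at least 2 Ythdf2 counts, the mean share of Ythdf2-201 per cell was 64.1% over 39 HE-AGM cells, 20.4% over 29 HE-YSA cells and 20.5% over 22 HE-YSP cells. By run, its share was 70.6%, 42.2% and 68.0% for HE-AGM beside 5.56%, 27.8% and 27.1% for HE-YSA. In HE-YSP it was 36.7%, 29.8% and 39.13%, but 17 of the 36 counts came from 1 cell. Thus each run gave a larger share in HE-AGM than in either YS population. The shorter coding transcript Ythdf2-204 (520 nt) held 11.2% for HE-AGM, 3.76% for HE-YSA and 1.26% for HE-YSP. Within HE-AGM, the share of Ythdf2-202 was 15.2% in early and 37.3% in late cells, a step in which 32.7% of genes with enough counts shifted.

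**Figure D5:**
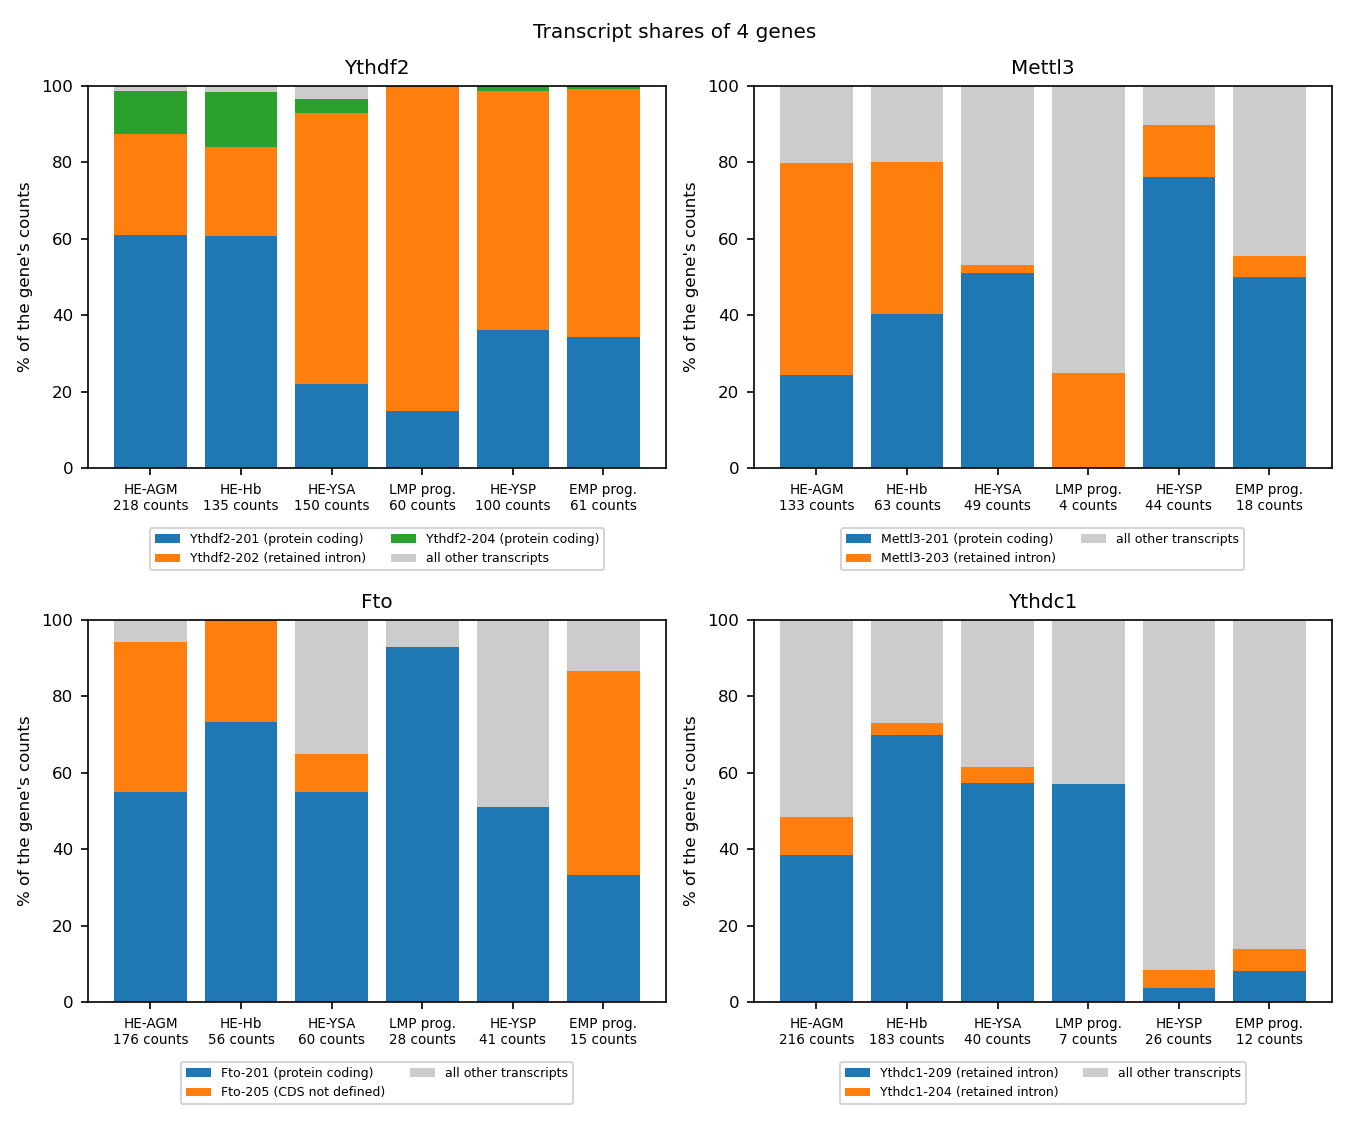
Share of the counts of Ythdf2, Mettl3, Fto and Ythdc1 (y axis, percent) held by named transcripts in the 3 HE populations and the 3 further clusters, as stacked bars with the counts of the gene under each. Ythdf2-201 holds 61.0% in HE-AGM and 22% in HE-YSA, Ythdf2-202 holds 26.5% and 70.9%, and Fto-205 is missing from the bar of HE-YSP.

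Ythdf3 (chr3:16183212-16217037, plus strand), a cytoplasmic reader thought to act with the other two, was the 1 gene lower in HE-AGM. Its median was 0 CPM in all 3 populations, with highest cells of 146 CPM for HE-AGM and 158 CPM for HE-YSA. The share of cells with a count was 26.5% for HE-AGM and 28.8% for HE-YSA, or 12.1% and 21% when thinned. The summed level was 9.91 CPM for HE-AGM (6.82 to 13.9), 21 CPM for HE-YSA (15 to 28.6) and 17.9 CPM for HE-YSP (12.1 to 25.6). The 2.11-fold lower level than in HE-YSA, a log2 ratio of -1.08 (-1.79 to -0.38), rests on 33 and 40 counts and was below 0 in each run. Between the early clusters alone, however, the log2 ratio was 0.10. The ratio to HE-YSP of -0.86 was under 2-fold and its run values of -0.33, 2.05 and -1.84 changed sign. Less the median of genes of like length, the log2 ratios were -2.30 over HE-YSA and -2.15 over HE-YSP, the second then past 2-fold, as was Mettl14 over HE-YSP at -1.57. Ythdf3-201 (5102 nt) held 81.8%, 32.5% and 33.3% of the 33, 40 and 30 counts, a transcript named after its values were seen since the gene had fewer than 50 counts.

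Ythdc1 (chr5:86804221-86836659, plus strand), the nuclear reader known to act in splicing and in export of marked RNA, had a median of 34 CPM and a highest cell of 343 CPM in HE-AGM. HE-YSA had counts in 6 of 52 cells with a highest cell of 584 CPM, and HE-YSP in 10 of 49 cells, beside 29 of 49 in HE-AGM. The share with a count was thus 59.2% for HE-AGM and 11.5% for HE-YSA, or 45.7% and 9.63% when thinned. The summed level was 64.9 CPM for HE-AGM (56.5 to 74.1), 21 CPM for HE-YSA (15 to 28.6) and 15.6 CPM for HE-YSP (10.2 to 22.8). This was 3.06-fold higher than HE-YSA, a log2 ratio of 1.61 (1.14 to 2.15), and 4.10-fold higher than HE-YSP, a log2 ratio of 2.04 (1.47 to 2.71), above 0 in each run of both comparisons. Less the median of genes of like transcript length, the log2 ratio was 0.64 over HE-YSA, under 2-fold, and 1.00 over HE-YSP.

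Part of the Ythdc1 signal came from an intronic transcript. Ythdc1-209 (3335 nt, chr5:86806411-86809745) is a single exon that lies in intron 1 of 11037 bases, begins 1820 bases after exon 1 and shares 36 bases with other Ythdc1 exons. It held 38.4% of Ythdc1 counts in HE-AGM (83 counts in 12 cells, 27 in 1 cell) and 3.85% in HE-YSP (1 count). In HE-YSA its 23 counts made up 57.5%, and 21 of them came from 1 cell. HE-Hb, the highest cluster at 121 CPM (104 to 140.1), owed 69.9% to Ythdc1-209, with 46 of 128 counts in 1 of 8 cells. Without Ythdc1-209, the gene stood at 39.9 CPM for HE-AGM, 8.92 CPM for HE-YSA and 15 CPM for HE-YSP. The log2 ratios were then 2.13 over HE-YSA (1.43 to 2.98) and 1.39 over HE-YSP (0.79 to 2.10), so the gene remained past 2-fold in both. Ythdc1-201, Ythdc1-202, Ythdc1-203 and Ythdc1-204 each held 10.0% to 10.7% in HE-AGM, and 43% of all Ythdc1 counts lay in split values. The first 30 bases of Ythdc1-209, which lie in intron 1 of Ythdc1-201, are given in capitals from GENCODE M21.
Ythdc1-209: GTGAGTTCCAGGACAAGTCAGGACTACACA

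Both erasers were measured above their YS levels in HE-AGM, Alkbh5 past 2-fold in both comparisons and Fto in 1. Alkbh5 (chr11:60536381-60558512, plus strand), a nuclear demethylase, stood at 51.4 CPM for HE-AGM (44.0 to 59.7), 22.6 CPM for HE-YSA (16.3 to 30.4) and 20.9 CPM for HE-YSP (14.6 to 29.1). Counts were present in 33 of 49, 11 of 52 and 13 of 49 cells, and the share of 67.3% for HE-AGM beside 21.2% for HE-YSA became 50.9% and 14.4% when thinned. The level was 2.3-fold higher than in HE-YSA, a log2 ratio of 1.17 (0.70 to 1.70), with run values of 2.76, 1.55 and 0.01. Over HE-YSP it was 2.43-fold higher, a log2 ratio of 1.28 (0.76 to 1.86), with run values of 2.49, 0.56 and 1.22. Alkbh5-201 was practically the sole transcript, with 100% of counts in HE-AGM and HE-YSA and 97.1% in HE-YSP, and is 5730 nt long. Less the median of genes of like length, its log2 ratios were -0.049 and -0.010, so the ratios of Alkbh5 lay at the median of genes of its length. By cluster, Alkbh5 ran from 65.6 CPM for HE-Hb and 58.8 CPM for HE-AGM early to 12.2 CPM for HE-YSA late and 10.9 CPM in EMP progenitors, with overlapping neighbours.

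Fto (chr8:91313525-91668439, plus strand), the other demethylase, stood at 52.9 CPM for HE-AGM (45.3 to 61.3), 31.5 CPM for HE-YSA (24.0 to 40.5) and 24.5 CPM for HE-YSP (17.6 to 33.3). Counts were present in 30 of 49, 22 of 52 and 14 of 49 cells. The level was 2.14-fold higher than in HE-YSP, a log2 ratio of 1.09 (0.61 to 1.64), with run values of 0.60, 1.22 and 1.03, and was 0.47, under 2-fold, less the median of genes of like length. The ratio to HE-YSA of 0.74 (0.32 to 1.20) stayed under 2-fold, with run values of -0.71, 1.47 and 1.03. HE-AGM late was the highest cluster at 70.5 CPM, and its interval overlapped that of the next cluster, the LMP progenitors at 42.6 CPM.

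Part of the difference in Fto lay in the short transcript Fto-205. This transcript of 1312 nt has no defined coding sequence and opens with an exon of its own before joining exons of the full-length form. It held 39.2% of Fto counts in HE-AGM (69 counts in 10 cells, at most 18 in 1 cell), with 34.8%, 39.0% and 40.2% in the 3 runs. HE-YSA had 6 counts (10.0%) in 4 cells, a log2 ratio of 2.61 (1.52 to 4.21), and HE-YSP had 0 of 41 Fto counts. With a floor of 3 counts set for HE-YSP, the level in HE-AGM was 11.5-fold higher. The counting interval of the log2 ratio over HE-YSP had a lower limit of 3.19, a smaller difference than the floor gives. EMP progenitors had 8 Fto-205 counts among 15, or 53.3%, so that the transcript was not absent from the YS plexus lineage. The coding transcript Fto-201 (3564 nt, 1506 coding bases) held 55.1%, 55.0% and 51.2% in HE-AGM, HE-YSA and HE-YSP. Its log2 ratio was 0.74 over HE-YSA (0.17 to 1.37) and 1.19 over HE-YSP (0.52 to 1.97). The second was past 2-fold and rests on 97 and 21 counts. Fto-203, named after its values were seen, held 34.1% of Fto counts in HE-YSP and 8.33% in HE-YSA. Fto-204 and Fto-206 reached 13.3% and 11.7% of 60 counts in HE-YSA. Without Fto-205, Fto stood at 32.1 CPM, 28.3 CPM and 24.5 CPM, with log2 ratios of 0.17 and 0.38 for HE-AGM, both under 2-fold. The shift of 29.2 percentage points against HE-YSA was called, whereas HE-YSP had fewer than 50 Fto counts. The exon junctions are from GENCODE M21, plus strand, with the shared downstream exon in capitals.
Fto-205: ttaggtagaaaaaagATGACCTCAATGCCA
Fto-201: gctatttcatgctggATGACCTCAATGCCA

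Along the trajectories, the share of members past 2-fold was near that of all genes. Of 54 ratios, which are 9 genes in 6 steps from early to late HE and from late HE to the next cluster, 12 passed 2-fold. Each step had enough counts for 7 to 9 of the 9 genes. In the 6 steps, between 20.4% and 26.7% of all genes tested passed 2-fold in either direction, so the count is no result about the members. From HE-AGM early to late, Ythdf3 fell from 28 to 5 counts, a log2 ratio of -1.89 (-3.74 to -0.61) with the same direction in each run, and Ythdc1 rose with a ratio of 1.05 (0.64 to 1.46). In that step, 9.13% of genes were higher and 17.2% were lower. The Ythdc1 value had run values of 0.74, -0.29 and 2.28, and without Ythdc1-209 it was 0.33. From HE-AGM late to HE-Hb, Ythdf3 rose again from 5 to 35 counts, a log2 ratio of 2.57 (1.33 to 4.40) in the same direction in each run, where 9.92% of genes were higher and 15.3% were lower. Ythdf3 was the 1 gene of 9 past 2-fold in that step.

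In the YS artery lineage, Ythdf1 fell from 34 counts in 9 HE-YSA early cells to 3 counts in 1 HE-YSA late cell, a log2 ratio of -3.64 (-6.19 to -2.17) with the same direction in each run. Alkbh5 fell by 1.52 on the log2 scale, from 30 to 13 counts, but 15 of the 30 came from 1 cell. Ythdf3 rose from 11 to 29 counts, but 8 of the 11 came from 1 cell (the early level of 13.1 CPM was 3.80 CPM without it) and the run values were -0.41, 1.11 and 4.66. Ythdc1 rose by 3.08 from 3 to 37 counts, of which 21 came from 1 cell. The runs did not share a direction for Alkbh5, Ythdf3 or Ythdc1 in this step. In this step, 11.1% of genes were higher and 11.7% were lower. From HE-YSA late to LMP progenitors, Mettl3 fell from 28 to 4 counts. Its log2 ratio was -1.97 (-4.08 to -0.59), in the same direction in each run. Ythdc1 went from 37 to 7 counts, a ratio of -1.62 (-3.11 to -0.52), but the run values were -1.66, 0.98 and -1.37. Without Ythdc1-209 its ratio was -1.35 (-3.96 to 0.32). Of all genes, 10.7% were higher and 16% were lower from HE-YSA late to LMP progenitors. In the YS plexus lineage, Ythdf2 rose from HE-YSP early to late with a log2 ratio of 1.28 (0.68 to 2.00) and run values of 1.31, 0.89 and 1.40. Ythdc1 rose there from 7 to 19 counts, a log2 ratio of 1.43 (0.18 to 2.99). Mettl14 went from 16 to 7 counts, a log2 ratio of -1.09 that was below 0 in each run. Its interval of -2.66 to 0.22 spans 0, and 4 of the 7 late counts came from 1 cell. In this step of the plexus lineage, 13.4% of genes were higher and 12.7% were lower. None of the 7 genes with enough counts passed 2-fold from HE-YSP late to EMP progenitors, where 8.23% of genes were higher and 12.2% were lower.

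By transcript class, the 9 genes drew 75.3% of their counts from protein-coding transcripts in HE-AGM (73.1 to 77.5), 63.8% for HE-YSA (59.4 to 68.2) and 73.7% for HE-YSP (68.6 to 78.3). Intron-retaining transcripts held 18.4%, 28.8% and 23.3%. For all genes these shares were 55.2%, 50% and 50.5% protein-coding and 6.04%, 5.34% and 5.30% intron-retaining. Different genes made up the class, since of 278 intron-retaining counts in HE-AGM 126 were of Ythdc1, 93.4 of Mettl3 and 57.7 of Ythdf2, whereas Ythdf2 held 106 of 139 in HE-YSA and 62.3 of 77.6 in HE-YSP, and the protein-coding Ythdf2-201 lacks most of the coding sequence. In the progenitors, intron-retaining transcripts held 23.6% in HE-Hb, 39.6% in LMP and 28.2% in EMP progenitors.

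Further genes of the pathway varied in both directions. Of 21 other m6A genes, 19 had enough counts in HE-AGM over HE-YSA, 6 were higher and 3 were lower, with a median log2 ratio of 0.29, where 31.8% and 13.3% of all genes were higher and lower with a median of 0.31. Over HE-YSP, 7 of 20 were higher and 3 were lower, with a median of 0.40, where 34% and 14.5% of all genes were higher and lower with a median of 0.37. These shares are near the background, so the counts are no result about the list. Past 2-fold in both were Virma, the scaffold of the writer complex, at 1.47 over HE-YSA and 2.66 over HE-YSP (0.99 to 6.07, with 2 counts in HE-YSP), and Zc3h13, which anchors the complex in the nucleus, at 1.14 and 1.04. The m6A-binding proteins Igf2bp2 and Prrc2a were also higher, at 1.14 and 2.87 and at 3.18 and 3.59. Lower in both were Mettl16, which methylates the mRNA of the S-adenosylmethionine synthetase, at -1.49 and -2.43, Rbmx at -1.19 and -1.19, and Ahcy, which clears S-adenosylhomocysteine, at -1.74 and -2.30. Of 11 CCR4-NOT subunits, the deadenylase complex that YTHDF2 recruits, 4 were higher and 2 lower over HE-YSA and 4 were higher and 1 lower over HE-YSP, again near the same shares of all genes. Cnot3 was higher at 2.51 and 3.77 and Cnot4 at 2.94 (1.27 to 6.34, 33 and 2 counts) and 3.49 (1.47 to 9.40, 33 counts and 1 count). Cnot6l, a catalytic subunit, was lower at -1.28 and -2.47.

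The genes whose pattern was most like each member were sought over 27 sums of cluster by run, as Pearson's r of log2 CPM among 6011 genes. The sums share libraries, depth and tissue, so these values are a description. Wtap lay closest to Cebpb, Ccdc85c and Hnrnpa1 (r = 0.87 for each), Ythdc1 to Lig1, Luc7l3 and Trim28 (0.79, 0.76 and 0.75), and Alkbh5 to Atad2, Fnta and Kpnb1 (0.78, 0.73 and 0.73). Ythdf2 lay closest to Bckdhb, Timm44 and Sephs2 (0.73, 0.70 and 0.68), Mettl3 to Fubp3, Purb and Dhx8 (0.70, 0.65 and 0.64), and Fto to Mzt1, Med24 and Wbp1 (0.69, 0.61 and 0.61). Ythdf1 lay closest to the gene with identifier ENSMUSG00000124387 and to Gm7367 and Gm13339 (0.81, 0.81 and 0.80). Mettl14 and Ythdf3 had fewer than 200 counts and were left out. Among the members themselves, Wtap had r = 0.59 with Ythdc1 and 0.57 with Ythdf1 and with Alkbh5, while Ythdf3 and Alkbh5 had r = -0.43.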

How the data were processed

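Single cells were sorted into plates, amplified with Smart-seq2 and sequenced as full-length cDNA by nanopore. Per the labels and the study's methods, reads were basecalled with Dorado, trimmed and cleaned of chimeras (bbduk, porechop, YACRD), and aligned with minimap2 2.26 (the submitters' notes also name R 4.3.0 and DESeq2 1.40.2). The authors deposited estimated counts per transcript from NanoCount, on GENCODE annotation of GRCm39, and TPM, which equal those counts scaled to a total of 1000000 per cell and hold no length correction. Estimated counts need not be whole, because a read compatible with several transcripts is divided among them.

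Cells were grouped by their labels, and 13 of 221 with fewer than 17595 counts were left out. This limit is the median total less 1 median absolute deviation, scaled as for a normal distribution. Counts were summed per gene or transcript over the cells of a population. The counts were not rounded and no count model was used, since each population is 1 sample. Ratios were formed after adding 0.5 counts. Intervals have a level of 95%. They take each read as independent, although reads of amplified cDNA without molecular identifiers are not, and so cover counting error only. A cell had a count where its estimate was at least 1. The shares thinned to 18000 counts per cell left out no cell. The ratio and interval code was tested on simulated data. Doublets were not called here, as single cells were sorted into wells. Among the cells labelled as YS, 3 have AGM in their library names or projects and were used with their labelled group.

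Transcripts were named where they held at least 10% of a member's counts in an HE population with at least 50 counts of that gene. Further pathway genes were named where they passed 2-fold in the same direction against both YS populations, and like genes as the 3 with the highest correlation of log2(CPM + 5) among those with at least 200 counts. Values per cell were given for the members with the highest and lowest ratios. Members and lists were chosen with earlier results of these data known. Exon structures and sequences came from GENCODE M21 (GRCm38), in which 52 member transcripts with counts were found at the length the files give; the files hold no coordinates. The tables were computed with pandas 2.3.3 and scipy 1.17.1 under Python 3.11.15 (numpy 2.4.6) and drawn with matplotlib 3.10.9, with size factors from DESeq2 1.42.0 and TMM factors from edgeR 4.0.16 as alternative scalings.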

Additional observations from a re-analysis of the deposited data

How the results depend on the processing

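Each population is 1 sample, so stability could be judged only by changing settings and runs. No paired analysis was possible because replicate numbers follow accession order only and no embryo is named. Wtap passed 2-fold in both AGM comparisons under all 23 alternatives, with log2 ratios of 1.34 to 2.49 over HE-YSA and 2.07 to 4.16 over HE-YSP. Members past 2-fold were counted in both directions together. Their number stayed within 1.5 times the reported number in 20 of 23 alternatives over HE-YSA and in 22 of 23 over HE-YSP. It was 3 over HE-YSA in run 1 alone, with early clusters only, and less the median of genes of like length (Wtap and Ythdf1 higher, Ythdf3 lower), and 3 over HE-YSP with YS cells of E10.5 only. An unchanged number could hide a change of direction. Over HE-YSP, less the median of genes of like length, Wtap, Ythdf1 and Ythdc1 stayed higher past 2-fold. Ythdf3 and Mettl14 were then lower past 2-fold, and Alkbh5 and Fto were under it.

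The members' median log2 ratio over HE-YSP, 1.09 as reported, was 1.34 under DESeq2's poscounts size factors, 0.91 with totals of 30000 to 60000 counts, 1.29 in run 1 alone, 1.37 in run 2 alone and 0.85 without run 1. It was 0.64 with YS cells of E10.5 only, 0.68 with early clusters only, 1.28 at a minimum of 100 summed counts and 0.47 less the length median. Run 2 alone gave 1.47 over HE-YSA and 0.48 for HE-YSP over HE-YSA. The poscounts factors moved the median of all genes over HE-YSA from 0.31 to 0.54 and the share of genes higher from 31.8% to 37.4%, and TMM factors moved the median to 0.22.

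For HE-YSP over HE-YSA, 1 member past 2-fold became 2 under poscounts, mean TPM, run 1 alone, run 3 alone, without run 3, with values of at least 1 count and with protein-coding transcripts only, 0 without run 2 and at 100 counts, 3 with E10.5 cells and 4 with early clusters. Isoform shifts depended most on counts. Over HE-YSA, 2 became 1 with totals of 30000 to 60000, in run 3 alone, without run 1, without run 3, and with E10.5, early or late cells, 0 in run 1 or run 2 alone and at 200 counts, and 6 at 20 counts. Over HE-YSP, 1 became 0 in each run alone, with early cells and at 200 counts, and 6 at 20 counts. Between the YS populations, 1 became 0 in each run alone, without run 1, with early cells, as a mean over cells, at 200 counts and at a difference above 0.2, and 5 at 20 counts. The protein-coding share in HE-AGM was 72.6% without run 1 and 78.8% without run 2. Among genes past 2-fold, direction reversed for Ythdf3 over HE-YSA with early clusters only (0.10) and for Alkbh5 less the length median (-0.049 over HE-YSA and -0.010 over HE-YSP). Genes under 2-fold reversed more widely in the AGM comparisons. Over HE-YSA the direction held in 20 of 23 alternatives for Mettl3 (lowest -0.82), 19 of 23 for Ythdf2, 22 of 23 for Fto (lowest -0.71) and 19 of 20 for Mettl14, and over HE-YSP in 19 of 23 for Mettl3, 18 of 23 for Ythdf2, 18 of 20 for Mettl14 and 20 of 21 for Ythdf3 (highest 0.12). The cause of these changes was not tested, apart from the fewer counts that single runs and higher minimums leave. Pseudogenes as an alternative gave no value, because 0 are named after a member.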
